A study of Mus musculus with 4 samples.

Results

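The cluster of miR-322, miR-503, miR-351, miR-542 and miR-450 is a group of miRNA hairpins on the mouse X chromosome, and 7 of the 750 miRNA assays on the cards were taken as its members. They were the rows whose miRBase name is mmu-miR-322, mmu-miR-503, mmu-miR-351, mmu-miR-542-3p, mmu-miR-542-5p or mmu-miR-450b-3p, and the assay named for rat miR-351. The members were chosen by name, as one cluster, with their levels in these 4 libraries and their lower adult values already known, so the values below are a description and carry no test. Lung miRNAs were read by TaqMan quantitative PCR in 4 groups of mice, neonates in room air or hyperoxia and adults in room air or hyperoxia. Exposure lasted 72 h, hyperoxia was 95% oxygen, and newborns entered it at an age under 12 h and were collected on day 3, while adults were 2 months old. Each group had 1 library, whose number of animals is not given, so no difference between libraries has a replicate check. No strain, genotype or sex is named in the labels used here, and protein-coding markers of lung cells were not on the cards.

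miRNAs guide Argonaute proteins to partly complementary messenger RNAs, which are then repressed, and pairing rests mainly on the seed, bases 2 to 8. miR-322 (called miR-424 in humans) and miR-503 belong to the extended family of miR-15 and miR-16, which represses cyclins and other genes that drive cells through the cycle. miR-351 carries the seed of miR-125, and miR-542-3p is known for repressing survivin, an inhibitor of cell death. The hairpins lie close together on one strand, and the first of them are processed from the long noncoding RNA that human geneticists call H19X.

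RefSeq (GRCm38.p6) holds the mature sequence of all 6 mouse-named members. They are shown because the seed sorts them into families and because the order of their hairpins along the chromosome is the order of the results. Capitals mark the seed, and the minus strand of chromosome X carries all of them.
miR-322 (chrX:53054306-53054327): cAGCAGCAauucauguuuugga
miR-503 (chrX:53054027-53054049): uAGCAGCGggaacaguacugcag
miR-351 (chrX:53053315-53053338): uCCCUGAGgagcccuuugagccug
miR-542-3p (chrX:53049415-53049436): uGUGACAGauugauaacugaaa
miR-542-5p (chrX:53049453-53049474): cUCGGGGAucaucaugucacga
miR-450b-3p (chrX:53048008-53048029): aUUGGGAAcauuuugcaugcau

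The mature products of the 7 hairpins span 6320 bases. The hairpins of miR-322, miR-503 and miR-351 lie inside the noncoding gene C430049B03Rik in the RefSeq annotation, and the hairpins of miR-542, miR-450a (a pair of copies) and miR-450b lie outside it. The 5′ end of miR-503 follows that of miR-322 by 278 bases and that of miR-351 by 989 bases. The miR-542 hairpin follows at 4853 bases and miR-450b at 6262.

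Seeds differed among the members. The seed of miR-322 occurs in 10 of 1679 mature mouse miRNA names in the table, and that of miR-351 in 5. The seeds of miR-503 and of miR-542-3p each occur in 1 name, their own. Relatives with a shared seed are set below for comparison with miR-322 and miR-351.
miR-16: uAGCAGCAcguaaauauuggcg
miR-497: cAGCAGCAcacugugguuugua
miR-125b: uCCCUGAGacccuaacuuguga
miR-322 and miR-497 share their first 8 bases and 15 of 22 positions, whereas miR-503 and miR-16 share the first 7 bases and 12 of 22 positions. miR-351 shares its first 8 bases with miR-125b and 10 of the 22 positions compared.

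A threshold cycle (Ct) is the PCR cycle at which an assay's fluorescence crosses a set level, so a lower Ct means more RNA. The level used below is the deposited Ct difference from the small nucleolar RNA snoRNA202 with its sign turned, which makes it a log2 value that is higher for more RNA. Levels of different assays are not compared, since each assay amplifies in its own way. Assays were compared when both libraries had a Ct of at most 35, and 477, 507, 468 and 468 of the 750 assays met that limit in the neonatal room air and hyperoxia libraries and the adult ones in the same order. All 7 members met it in the libraries used here, and the miR-322 assay had the earliest Ct of the 7 in every library, between 17.5 and 19.4. In whole lung, fewer cells of a type and less RNA per cell cannot be told apart.

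Some deposited values call for care before they are read. Both miR-542 arms sit in row L of the first card, whose 24 wells in adult room air had Ct values that correlated at r = 0.302 with the other 3 libraries' mean. The lowest such r in any other row or library was 0.769. The miR-542 values of that library were therefore disregarded. In the remaining libraries the row's Ct values correlated between pairs of libraries at 0.886 to 0.979. In adult room air the deposited level of miR-322 is the only one on the first card that uses the second card's snoRNA202, and every well of the second card, among them miR-450b-3p, use the first card's. Each such value is off by 0.225 log2, downwards on the second card and upwards for miR-322, and values against the own card's snoRNA202 are given beside the deposited ones. The spread of a difference was taken from 4 control RNAs present on both cards, with a technical SD of 0.65 log2 for age in room air and 0.95 for age in hyperoxia. It was 0.26 for hyperoxia against room air in neonates and 0.33 in adults, and it leaves out variation between animals. It describes the difference of a single RNA read on different cards. The spread of a gap between assays was not measured, so the SD is only a rough yardstick for such gaps.

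In adult lung every member that could be compared was lower than in neonatal lung on the snoRNA202 scale, and the members spread widely. In room air 5 of 5 compared members lay at least 2-fold below the neonate in the adult, and their median was -5.15 log2. Of all 431 assays compared, 44.5% were at least 2-fold lower and the median was -0.73. Between the hyperoxia libraries 7 of 7 members were lower by that much and their median was -5.22, against 49.3% of 450 assays and a median of -0.98. By card, the median of all assays in room air was -0.40 on the first and -1.20 on the second. In hyperoxia these medians were -0.95 and -1.04. The 2 age comparisons share no library. The members were chosen with these contrasts known, so nothing is read from the counts.

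**Figure D1:**
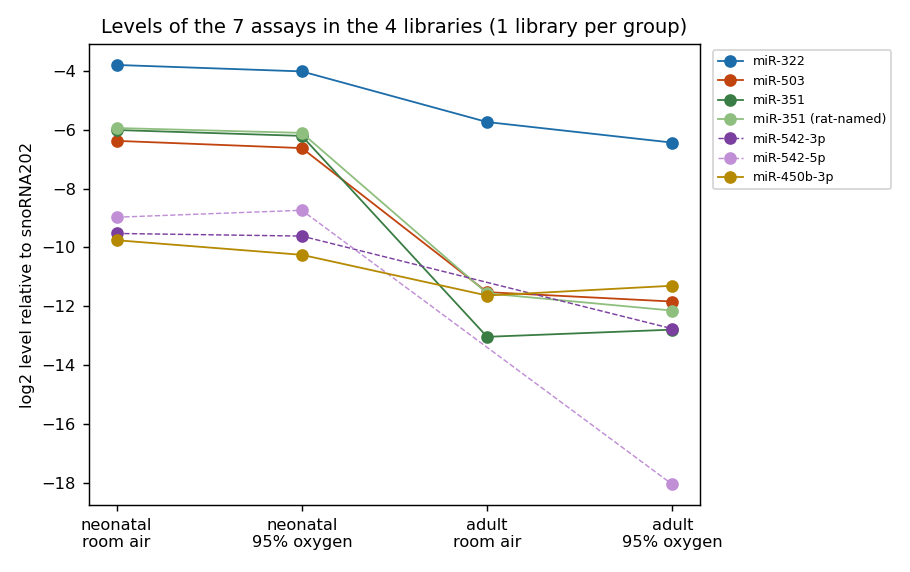
Log2 level relative to snoRNA202 (vertical axis) of the 7 member assays in the 4 libraries (horizontal axis), 1 point per library; dashed lines join the miR-542 arms across the disregarded adult room air library. Every line is lower in the adult libraries, least so for miR-322 and miR-450b-3p, and the neonatal pair of points of each assay lies within 0.50 log2.

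miR-322, the most 5′ of the hairpins, was at -3.79 log2 in neonatal room air and -4.01 in neonatal hyperoxia, against -5.73 and -6.43 in the adult room air and hyperoxia libraries. Both adult values lay below both neonatal ones, and the share of all assays so ordered was not counted. The adult difference in room air was -1.94 log2 by the deposited values, or 3.84-fold lower, and -2.17 against the own card's snoRNA202. In hyperoxia the difference was -2.42, or 5.36-fold. These differences are 2.99 and 2.55 times the technical SD. With U6 as the reference the sign turned, to 0.48 in room air and 0.56 in hyperoxia, so the direction for miR-322 rests on the reference. Of the references tried, only U6 gave values above 0. The Ct of U6 moved with age by 2.03 and 2.29 cycles on the first card, and by -0.53 and -0.18 on the second.

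miR-503, which lies next to miR-322 and shares its growth-restraining family, was at -6.37 log2 in neonatal room air and -6.62 in neonatal hyperoxia, against -11.52 and -11.84 in the adult room air and hyperoxia libraries. For miR-503 too, both adult values lay below both neonatal ones, and the share of all assays so ordered was not counted. The age difference was -5.15 in room air, a 35.4-fold lower adult level, and -5.22 in hyperoxia, or 37.2-fold. They are 7.94 and 5.50 times the technical SD. The values ranked 33 from the lowest of 431 assays and 31 from the lowest of 450. Under the 5 references that give this assay distinct values (the deposited and own-card ones coincide) miR-503 stayed at least 2-fold lower in the adult, with values from -5.15 to -2.50 in room air and from -5.22 to -2.24 in hyperoxia.

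miR-351, with the miR-125 seed, had a pair of assays named for it on the first card. The mouse-named assay was at -6.01 log2 in neonatal room air and -6.21 in neonatal hyperoxia, against -13.04 and -12.79 in the adult room air and hyperoxia libraries. The rat-named assay was at -5.94, -6.10, -11.56 and -12.15 in the same libraries. In both assays the adult values lay below the neonatal ones, an order whose share among all assays was not counted.

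The mouse-named assay of miR-351 gave an age difference of -7.03 log2 in room air (131-fold lower) and -6.59 in hyperoxia (96.3-fold). The rat-named assay gave -5.62 (49.3-fold) and -6.04 (65.9-fold). The rat-named Ct minus the mouse-named Ct was -0.068 and -0.10 cycles in the neonatal libraries, and -1.48 and -0.65 in the adult room air and hyperoxia libraries. The assays named for miR-351 thus differed in their room air age difference by -1.41 (mouse-named minus rat-named), larger than the technical SD of 0.65. In hyperoxia they differed by -0.55, smaller than the 0.95 there. The rat sequences were not examined, so whether a rat-named assay reads the same RNA as its mouse-named partner was not checked. Under the same 5 references both assays stayed at least 2-fold lower in the adult, between -7.03 and -2.98 in room air, and between -6.59 and -3.07 in hyperoxia.

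The miR-542 hairpin gives a pair of arms, both assayed in row L. miR-542-3p was at -9.52 log2 in neonatal room air, -9.61 in neonatal hyperoxia and -12.76 in adult hyperoxia. miR-542-5p was at -8.97, -8.74 and -18.06 in these libraries. Both arms were lowest in the adult library, and their distances from the neonatal libraries were unequal.

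In hyperoxia the age difference was -3.15 for miR-542-3p, an 8.88-fold lower adult level, and -9.32 for miR-542-5p, the value at rank 4 from the lowest of 450 assays. The arms differed by 6.17 log2, against a technical SD of 0.95. The Ct of the 5p assay minus that of the 3p assay was -0.55 and -0.88 cycles in the neonatal libraries and 5.30 in adult hyperoxia. The adult Ct of miR-542-5p was 30.9, the latest of any member value used, against 25.6 for miR-542-3p. No repeat assay of either arm exists on the cards, and the precision at that Ct was not measured. With U6 as the reference the 3p arm was at -0.17, while the 5p arm was at -6.35.

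miR-450b-3p, from the last hairpin, is the one member on the second card. It was at -9.75 log2 in neonatal room air and -10.25 in neonatal hyperoxia, against -11.63 and -11.30 in the adult room air and hyperoxia libraries. On this scale the adult library was lower, at -1.88 in room air (-1.66 against the own card's snoRNA202) and at -1.05 in hyperoxia. The hyperoxia difference is 1.11 times the technical SD. Its Ct values were 25.1, 24.9, 25.1 and 25.1 in the same order of libraries. They moved with age by 0.006 cycles in room air and 0.21 in hyperoxia, while snoRNA202 on the second card crossed earlier in adults, at Ct changes of -1.65 and -0.84. The lower level of miR-450b-3p is thus, in arithmetic terms, mostly the move of the reference RNA. With each library centred on its mean it was at -0.14 in room air and 0.34 in hyperoxia.

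**Figure D2:**
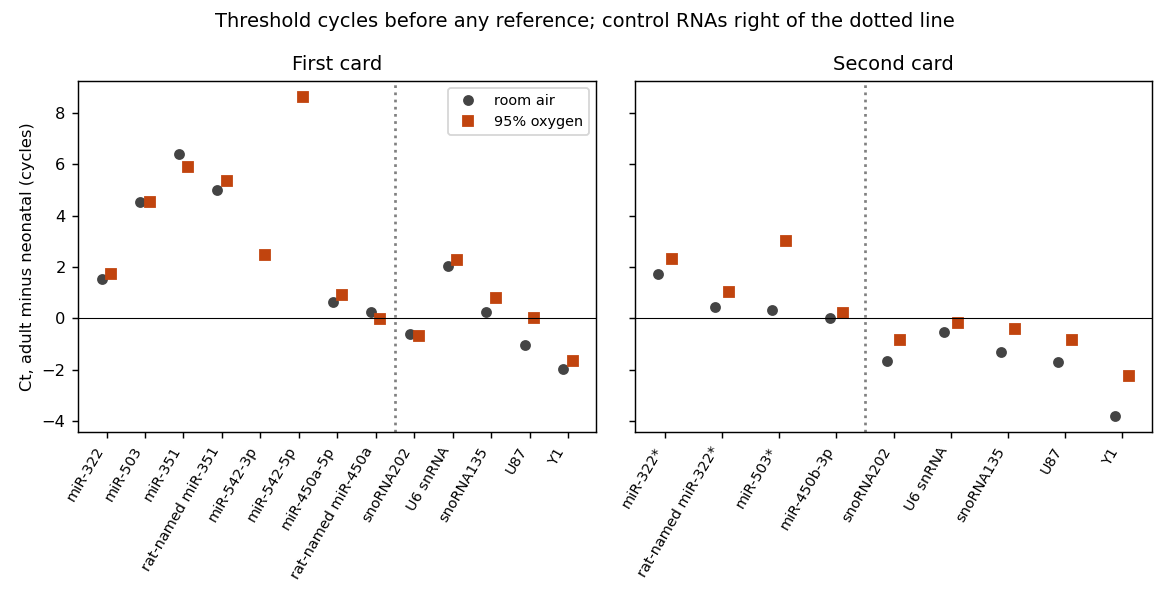
Change in Ct from neonatal to adult lung (cycles, positive for less RNA) for each detected assay of the cluster and for 5 control RNAs, by card, in room air (circles) and 95% oxygen (squares), 1 library per group. miR-503 and miR-351 moved by 4.52 to 6.41 cycles and miR-450b-3p by at most 0.21, while snoRNA202 moved by -0.62 and -0.69 on the first card and -1.65 and -0.84 on the second.

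Within one card the reference RNA drops out when assays are set against each other, so the changes in proportion among members do not rest on it. The miR-503 assay crossed 2.58 and 2.61 cycles after miR-322 in the neonatal libraries and 5.56 and 5.40 cycles after it in the adult ones. The ratio of miR-503 to miR-322 thus differed with age by -2.98 log2 in room air (7.88-fold lower) and by -2.80 in hyperoxia (6.95-fold lower).

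The ratio of miR-351 to miR-322 was at -4.87 log2 in the adult against the neonate in room air and at -4.17 in hyperoxia with the mouse-named assay. The rat-named assay gave -3.46 and -3.62. The ratio of miR-542-3p to miR-322 differed by -0.73 in hyperoxia and that of miR-542-5p by -6.90. The technical SD of 0.95 there comes from single control RNAs across cards and does not measure the spread of such a ratio. The miR-450a assays on this card went the other way relative to miR-322, at 0.90 in room air and 0.81 in hyperoxia for miR-450a-5p and at 1.29 and 1.77 for rat-named miR-450a. These values show unequal changes and not which assay stayed level. Relative to miR-322, miR-503 and miR-351 were lower in adults in both atmospheres.

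Of 7 further assays for products of these hairpins, 5 could be compared in each comparison. In room air the adult was lower by 2-fold or more for 4 of 5, with a median of -2.20, and in hyperoxia 4 of 5 with a median of -1.89. Of all assays 44.5% and 49.3% were lower by that much, with medians of -0.73 and -0.98. miR-450a-5p was at -1.27 in room air and -1.61 in hyperoxia, and the assay named for rat miR-450a was at -0.88 and -0.66. Their Ct moved with age by 0.65 and 0.92 cycles and by 0.26 and -0.036, while snoRNA202 on that card moved by -0.62 and -0.69. The lower level by the rat-named assay is thus, in arithmetic terms, mostly the move of the reference RNA. Beyond own-card snoRNA202, other references were not run for these further products. miR-450b-5p crossed at 36.9 and 38.5 in the neonatal libraries and held the no-crossing Ct of 40 in the adult ones, and miR-450a-3p held 40 in all 4 libraries. miR-450b-3p and the 3′ arm of the first miR-450a copy, miR-450a-1-3p, match at 20 of 22 positions and differ at G19A and C20A, counted from the 5′ end with the miR-450b-3p base first. An assay for one could in principle read the other, which was not tested.

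The opposite arms of the first hairpins, read on the second card, were also lower in adults on the snoRNA202 scale. miR-322*, the 3′ arm, was at -2.95 log2 in neonatal room air and -3.20 in neonatal hyperoxia, against -6.55 and -6.35 in the adult room air and hyperoxia libraries. Its age difference was -3.38 against the own card's snoRNA202 in room air (-3.61 as deposited) and -3.15 in hyperoxia. A second assay, with the miRBase name rno-miR-322*, gave -2.09 and -1.89 on the own-card scale. The assays named for this arm differed by -1.29 and -1.26 (mouse-named minus rat-named). With age in room air the Ct moved by 1.73 cycles for the mouse-named assay and by 0.44 for the rat-named one, while snoRNA202 on that card moved by -1.65. In hyperoxia the Ct moves were 2.31 and 1.05, against -0.84 for snoRNA202.

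miR-503*, the 3′ arm of miR-503, was at -4.66 log2 in neonatal room air and -3.54 in neonatal hyperoxia, against -6.86 and -7.41 in the adult room air and hyperoxia libraries. Neonatal hyperoxia stood highest, which was so for neither miR-503 nor miR-322. That library also stood highest for miR-450a-5p, rat-named miR-450a and, in the libraries used, miR-542-5p. Against the own card's snoRNA202 the room air age difference was -1.97 for miR-503* and -5.15 for miR-503, a gap of -3.17 for miR-503 relative to miR-503*, past the technical SD of 0.65. The Ct of miR-503* moved by 0.32 cycles with age in room air and by 3.03 in hyperoxia, so most of its room air difference is the move of snoRNA202. In hyperoxia miR-503* was at -3.87 and miR-503 at -5.22, a gap of -1.35. The Ct of miR-503* minus that of miR-503 was -0.46 in neonatal room air and -1.999 in neonatal hyperoxia, against -4.66 and -3.50 in the adult room air and hyperoxia libraries. For miR-322 relative to mouse-named miR-322* the own-card gap was 1.22 in room air and 0.72 in hyperoxia, against technical SDs of 0.65 and 0.95. The rat-named miR-322* assay, at -2.09 and -1.89, lay nearer to miR-322, at -2.17 and -2.42 on that scale. The sequences of these opposite arms are shown because the arms of a hairpin were read by separate assays.
miR-322* (chrX:53054269-53054289): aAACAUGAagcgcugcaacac
miR-503* (chrX:53053987-53054008): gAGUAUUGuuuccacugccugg

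**Figure D3:**
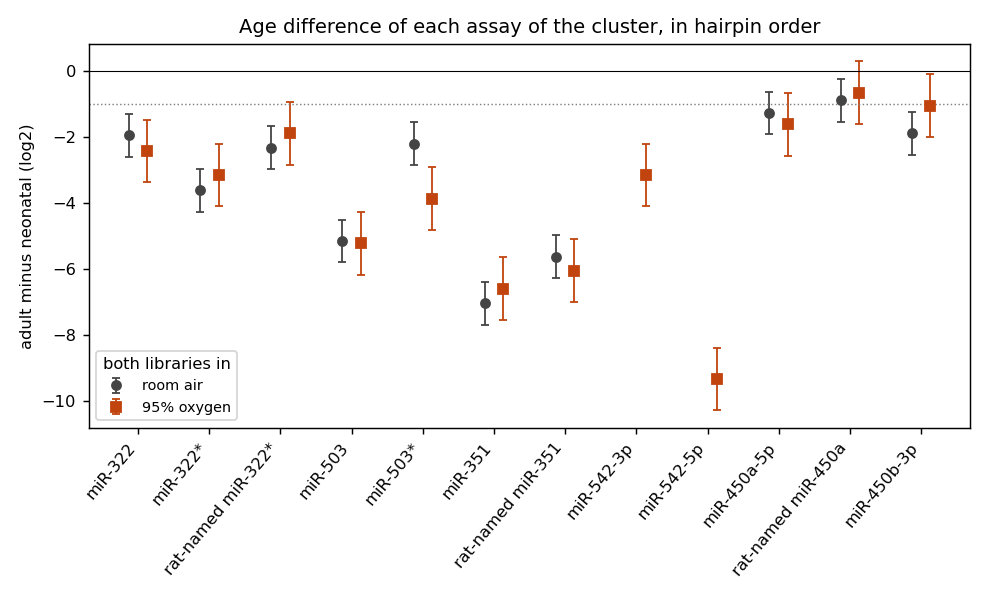
Adult minus neonatal level (log2, deposited snoRNA202 scale) of 12 assays of the cluster in hairpin order, in room air (circles) and 95% oxygen (squares); bars are the technical SD from 4 control RNAs, 0.65 and 0.95 log2, and the dotted line marks 2-fold. miR-503, miR-351 and miR-542-5p lie below -5 in each comparison made, and the miR-450 assays lie between -1.88 and -0.66.

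Relatives with the same seeds varied in the sign of their age difference. Of 5 miRNAs of the miR-15 and miR-16 family outside the cluster, 2 were lower and 1 was higher by 2-fold or more in the adult in room air, with a median of 0.40 log2, and the counts were equal in hyperoxia with a median of 0.25. In room air and hyperoxia miR-15b was at -1.46 and -1.71 and miR-16 at -1.17 and -1.88. miR-322 was at -1.94 and -2.42. The rest of the family lay above 0, with miR-15a at 0.40 and 0.25, miR-195 at 0.75 and 0.72 and miR-497 at 1.82 and 1.33. Of all assays 44.5% were at least 2-fold lower and 15.3% higher in room air, and 49.3% and 10.9% in hyperoxia. Among miRNAs with the miR-351 seed, miR-125a-5p was at -1.31 in room air and -2.73 in hyperoxia, and the miR-125b assay, listed as mmu-miR-125, at 1.82 and 1.61.

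Other miRNAs of the X chromosome were set beside the cluster because of the shared chromosome. Of 61 such assays, 25 could be compared in room air, of which 12 were lower and 4 higher by 2-fold or more in the adult, with a median of -0.75 log2 and a range from -3.31 to 3.12. In hyperoxia 13 of 28 were lower and 3 higher, with a median of -0.91 and a lowest value of -3.86. Among all assays 44.5% were lower and 15.3% higher in room air, and 49.3% and 10.9% in hyperoxia. The medians of the X-linked assays lie near those of all assays, and the values of miR-503 and both miR-351 assays lie below both ranges.

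After 72 h of hyperoxia no member that could be compared differed 2-fold from room air at either age. The miR-542 arms could be compared in neonates only. In neonates 0 of 7 members passed 2-fold, where 8.53% of 469 assays were at least 2-fold lower and 13.6% at least 2-fold higher. The members lay between -0.50 and 0.24 log2 with a median of -0.20, and the median of all assays was 0.13. miR-322 was at -0.22, miR-503 at -0.25, miR-351 at -0.20 and -0.17 by its mouse-named and rat-named assays, miR-542-3p at -0.09 and miR-542-5p at 0.24. Each of these is smaller than the technical SD of 0.26. miR-450b-3p, at -0.50, is 1.94 times that SD.

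In adults 0 of 5 compared members passed 2-fold, where 7.21% of 444 assays were at least 2-fold lower and 5.18% at least 2-fold higher. miR-322 was at -0.70 as deposited and at -0.48 against the own card's snoRNA202, against a technical SD of 0.33. miR-503 was at -0.32, within that SD. The miR-351 assays lay on opposite sides of 0, the mouse-named at 0.24 and the rat-named at -0.59, a gap of 0.83 that is larger than the SD. miR-450b-3p was at 0.33 as deposited and at 0.11 on the own-card scale.

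miR-503* was the one product of the cluster at least 2-fold higher after hyperoxia in neonates, at 1.12 log2 or 2.17-fold. Of all 469 assays compared there, 13.6% were at least 2-fold higher, and miR-503* ranked 418 from the lowest. Nothing about the cluster is read from this call. The Ct of miR-503* fell by 1.82 cycles there, to 18.2. In adults it was at -0.55 as deposited and at -0.77 on the own-card scale. miR-503, from the same hairpin, was at -0.25 and -0.32 in these comparisons. The other 4 detected products lay between -0.32 and 0.51 in neonates and between -0.12 and 0.44 in adults on the own-card scale.

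**Figure D4:**
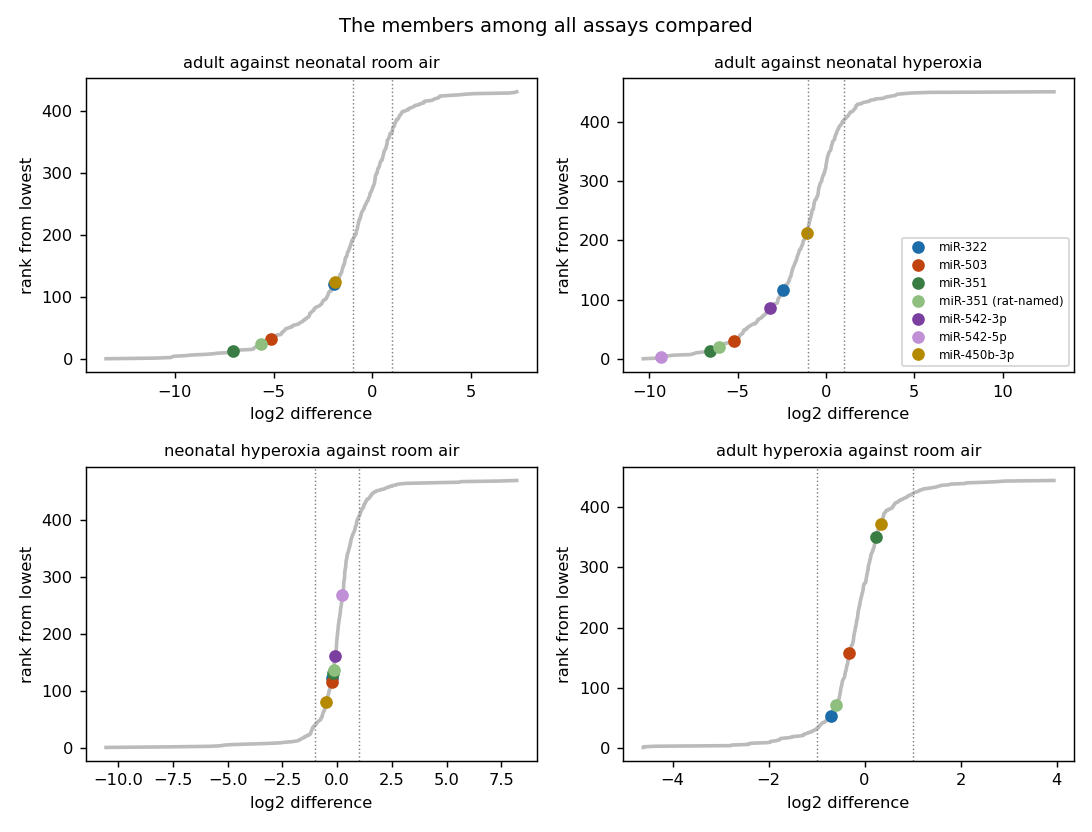
Log2 difference (horizontal axis) against rank from the lowest (vertical axis) of all assays compared (grey curve), with the members as coloured points, in the 4 comparisons; dotted lines mark 2-fold in each direction. In the age comparisons miR-351 ranks 13 of 431 and 14 of 450 by its mouse-named assay, and in the oxygen comparisons the members compared, 7 in neonates and 5 in adults, lie between the dotted lines.

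On the deposited snoRNA202 scale the order of the libraries was the same for miR-322, miR-503 and the rat-named miR-351 assay, from high to low: the neonates in room air and in oxygen, then the adults in room air and in oxygen. Within the neonates neighbours in this order were nearer than the technical SD for each of these assays. Within the adults the gap exceeded the SD for miR-322 and rat-named miR-351 and not for miR-503. For the mouse-named miR-351 assay and miR-450b-3p adult hyperoxia stood above adult room air. The order of the adult libraries changed with the reference. With each library centred on its mean, adult hyperoxia stood above adult room air for miR-322 by 0.12, for miR-503 by 0.28 and for rat-named miR-351 by 0.0094. With U6 the adult gap of miR-322, at -0.23, was within the SD of 0.33, as it was with snoRNA135 and snoRNA202 together and with card medians, at -0.22 and -0.29.

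Other miRNAs had profiles near the mean profile of the members and near those of single members. Over the 4 libraries, with each profile centred on its own mean, the mean of the 5 members measured in all of them was 2.28 in neonatal room air and 2.01 in neonatal hyperoxia, against -2.04 and -2.25 in the adult room air and hyperoxia libraries. The members' root mean square distance from it ran from 0.45 for miR-503 to 1.43 for miR-450b-3p. Of 417 other assays, those nearest were miR-296-5p at a distance of 0.089, miR-335-3p at 0.14, miR-335-5p at 0.20, rat-named miR-337 at 0.21 and rat-named miR-551b at 0.21. For miR-322 alone they were miR-130b at 0.17, miR-199a-5p at 0.20, miR-1982.1 at 0.23, miR-494 at 0.23 and miR-188-5p at 0.24. For mouse-named miR-351 they were miR-487b at 0.11, miR-541 at 0.16, miR-376a at 0.33, miR-382 at 0.41 and miR-410 at 0.45. For the rat-named assay they were rat-named miR-487b at 0.13, miR-1193 at 0.15, miR-410 at 0.17, miR-382 at 0.19 and miR-380-5p at 0.20. For miR-503 they were miR-411 at 0.11, miR-409-3p at 0.13, rat-named miR-409-3p at 0.16, miR-379 at 0.16 and miR-136 at 0.23. For miR-450b-3p the nearest was miR-720 at 0.13. All these profiles share the same 4 libraries. Within a card they share the reference, save that miR-322 in adult room air uses the other card's snoRNA202. The distances use the deposited values. The adult room air value of miR-322 is off by 0.225 log2, about the size of the distances listed for it, and second-card values there by as much the other way.

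The reference set how many members counted as lower with age. On the snoRNA202 scale 44.5% of assays were at least 2-fold lower and 15.3% higher with age in room air, and with U6 18.8% and 56.6%. In hyperoxia 49.3% and 10.9% became 25.3% and 49.6%. The median of all assays moved from -0.73 to 1.41 with U6 in room air and from -0.98 to 0.99 in hyperoxia. U6 itself was at -2.65 and -2.98 against snoRNA202 on the first card in these comparisons. On the second card it was at -1.12 and -0.66. Against the median of all assays under U6, miR-322 at 0.48 and 0.56 was still on the lower side. miR-503 and both miR-351 assays were at least 2-fold lower under every reference tried in both atmospheres, as was miR-542-5p in hyperoxia. In hyperoxia the deposited and own-card values coincide, which leaves 5 distinct references. miR-322 was at least 2-fold lower under 4 of 6 in room air and 3 of 5 in hyperoxia, miR-542-3p under 4 of 5 in hyperoxia, and miR-450b-3p under 3 of 6 in room air and 1 of 5 in hyperoxia.

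**Figure D5:**
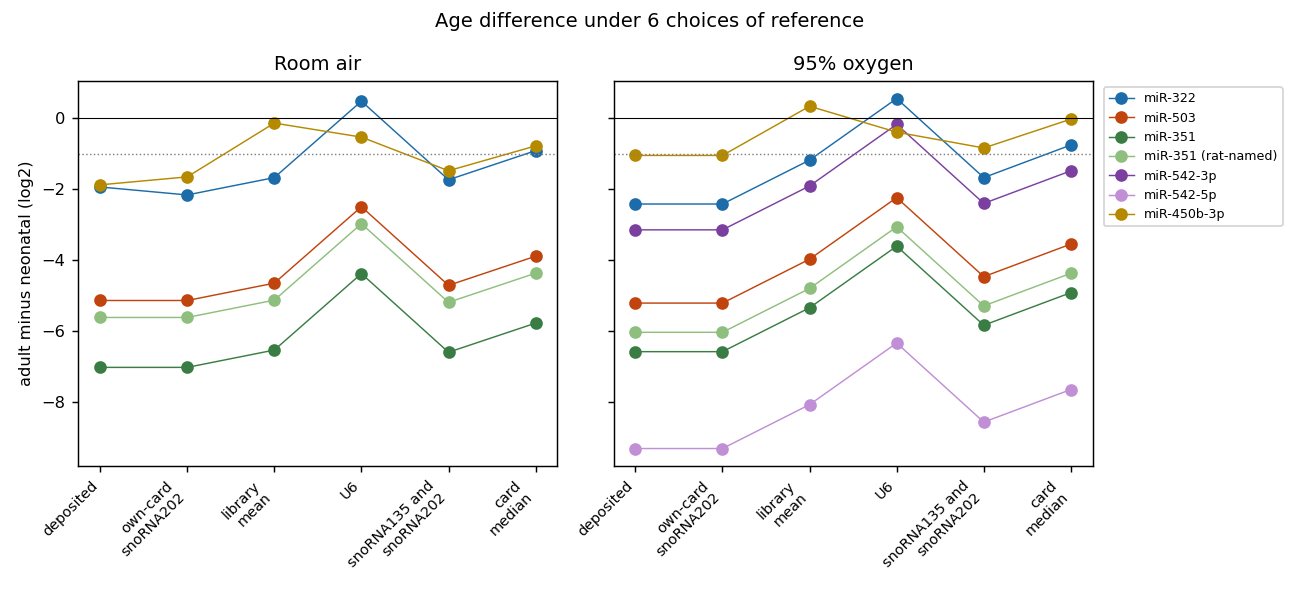
Adult minus neonatal level (log2) of each member under 6 choices of reference, in room air (left) and 95% oxygen (right); the dotted line marks 2-fold lower, and deposited and own-card points coincide in oxygen. miR-503 and both miR-351 assays stay below the dotted line throughout, whereas miR-322 reaches 0.48 and 0.56 with U6 and miR-450b-3p ranges from -1.88 to 0.34.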

How the data were processed

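Lung RNA went through reverse transcription and preamplification with Megaplex primers (sets A and B) before TaqMan detection, per the labels' protocols. The authors deposited Ct values and Ct differences from snoRNA202, both log2 quantities that fall as RNA rises, per the file headers; a cycle is 2-fold only at perfect amplification. How Ct was set, by which software and threshold, is not stated in the sources used here. The files hold 2 cards of 384 wells, with 18 control wells, and a Ct of 40 where no crossing was recorded. No read depth exists for this assay, and Ct stands in its place.

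The sign of the deposited difference was turned, libraries were subtracted in 4 comparisons, and 1 log2 unit (2-fold) counted as apart. With 1 library per group no test was run. The technical SD is the root mean square gap between cards of U6, snoRNA135, U87 and Y1, each against its own card's snoRNA202, divided by the square root of 2. Row L of the first card was left out of every comparison with adult room air, save in an alternative that kept it. The count of 468 assays that met the Ct limit in that library includes the row. Alternatives were 5 other references and Ct limits of 32 and 38. Named were the 7 members, other products of the hairpins, seed relatives, other X-linked miRNAs (miR-879 and miR-882 were left out since RefSeq places them elsewhere) and, as like patterns, the 5 assays nearest in root mean square distance. Members and lists were chosen with earlier results of these data known. The counting was tested on simulated data. Python 3.11.15, pandas 2.3.3 and numpy 2.4.6 were used.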

Additional observations from a re-analysis of the deposited data

Results flagged for a closer look

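Some members lay on opposite sides of 0 after hyperoxia in neonates and in adults on the snoRNA202 scale, with 1 library per group, and the difference between ages was not tested. miR-351 by its mouse-named assay was at -0.20 log2 in neonates and at 0.24 in adults, both within the technical SD, and its rat-named assay did not show this, at -0.17 and -0.59. With each library centred on its mean the mouse-named assay was at -0.36 and 0.84, and the rat-named one was at -0.32 and 0.0094. miR-450b-3p was at -0.50 in neonates and at 0.33 in adults, or 0.11 in adults against its own card's snoRNA202. Its adult value was -0.0026 with the library mean, and its neonatal value was 0.0075 with U6.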

How the results depend on the processing

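With U6 as the reference, members at least 2-fold lower with age numbered 3 in room air and 4 in hyperoxia, and miR-322 turned to 0.48 and 0.56. With each card's median as the centre, 3 members were lower in room air. With the library mean, miR-450b-3p turned to 0.34 in hyperoxia. The shares of all assays at least 2-fold lower and higher with age followed the reference. In room air they were 25.1% and 36.2% with the library mean, 18.8% and 56.6% with U6, and 25.3% and 39.9% with card medians. In hyperoxia they were 26.7% and 34.2%, 25.3% and 49.6%, and 27.3% and 36.4%, and with snoRNA135 and snoRNA202 together 17.3% were higher. At a Ct of 32 or below, 3.12% of assays were higher after hyperoxia in adults. The cause of these shifts was not tested. Keeping row L in adult room air, an alternative chosen after seeing the data, moved none of the shares of all assays by over 1.5 times, and counts of members were not run with it. Of the counts under an alternative, 103 stayed within 1.5 times of the value given in the results and 17 did not. Of the members' own differences under another reference, 80 stayed within the technical SD of the value given, 37 moved by more, some of them under 2-fold and across 0, and 3 of at least 2-fold changed sign. Both tallies include own-card values that equal the deposited ones by construction. These scales differ only in comparisons with adult room air, for miR-322 and the second card. The number of libraries limits precision. No paired analysis was possible because each group has 1 library and no replicate number.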
